A study of Mus musculus with 75 samples.

Results

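Transcripts of 10 kidney transporters for glucose, phosphate, protons, bicarbonate and dicarboxylates were followed after ureter obstruction. They were the rows of the deposited count table with the symbols Slc5a1, Slc5a2, Slc2a1, Slc2a2, Slc34a1, Slc34a3, Slc20a1, Slc9a3, Slc4a4 and Slc13a3, 10 of 32245 genes, and all 10 passed the filter on low counts in each arm of the study. RNA of whole kidneys was sequenced 3 days after unilateral ureteral obstruction (UUO), in which 1 ureter is tied, with the contralateral kidney (CL) of operated mice as the control. The 75 libraries fell into 12 groups, which are 6 genotypes or treatments by CL or UUO kidney, in adult mice of both sexes. The study reports an uneven share of the sexes in some groups.

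The IgG mice (8 CL and 8 UUO libraries) received human IgG Fc and the ABT mice (7 and 7) received ABTAA, an antibody that clusters angiopoietin-2 and activates the endothelial receptor TIE2. They were C57BL6/J mice or wild-type mice from the crosses. The VeKO mice (6 CL and 8 UUO) carried floxed Veptp (gene symbol Ptprb), which encodes a phosphatase that restrains TIE2, and were induced with tamoxifen through Cdh5-CreERT2, a Cre active in endothelial cells. Their controls, VeWT (7 and 8), were noninduced Veptp wt/lox mice that carried the same Cre, so tamoxifen also differed between those groups. The PbKO mice (4 and 4) carried floxed Pdgfb with a tamoxifen-inducible Actb-CreERT2 active in the whole body, and the PbWT controls (4 and 4) were Cre-negative Pdgfb wt/lox or lox/lox mice. The crosses were on a mixed background. By the study's methods the PbWT CL group includes kidneys of 2 sham-operated mice, which the labels do not mark, so part of that control is not contralateral to an obstruction. The methods count 1 VeWT mouse fewer than the 8 UUO libraries labelled VeWT, all of which were used. A kidney was 1 library, the labels do not say which CL and UUO libraries came from the same mouse, although some library names share a number, and p-values measure the spread between these libraries.

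The proximal tubule takes up nearly all filtered glucose and most phosphate and bicarbonate. Glucose enters through the sodium-coupled carriers SGLT2 (Slc5a2, in the early segment) and SGLT1 (Slc5a1, further down) and leaves through the facilitative carriers GLUT2 (Slc2a2) and GLUT1 (Slc2a1). Phosphate enters through NaPi-IIa (Slc34a1) and NaPi-IIc (Slc34a3) in the brush border, which parathyroid hormone and FGF23 restrain, while PiT-1 (Slc20a1) is a phosphate carrier of many cell types. NHE3 (Slc9a3) exchanges luminal sodium for protons, NBCe1 (Slc4a4) returns bicarbonate to the blood, and NaDC3 (Slc13a3) takes up dicarboxylates from the blood side.

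Promoter sequence is shown for Slc34a1 and Slc13a3, called lower in 5 of the 6 comparisons of UUO with CL kidneys. It is also shown for Slc20a1, called higher in all 6. Slc9a3 (all 6) and Slc5a2 (5 of 6) were also called lower and are not shown. Each line gives 210 bases of the sense strand that end 41 bases before the RefSeq start site in GRCm38.p6, and capitals mark GTTAAT (letters found in binding sites of the tubular factor HNF1), CACGTG (an E-box) or GGGCGG (a GC box), on either strand:
Slc34a1, chr13:55399398-55399607, plus strand: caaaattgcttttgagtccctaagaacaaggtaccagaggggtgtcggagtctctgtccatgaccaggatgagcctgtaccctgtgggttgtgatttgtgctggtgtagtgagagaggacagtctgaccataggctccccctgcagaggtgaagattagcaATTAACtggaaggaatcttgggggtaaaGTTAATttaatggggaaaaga
Slc13a3, chr2:165473238-165473447, minus strand: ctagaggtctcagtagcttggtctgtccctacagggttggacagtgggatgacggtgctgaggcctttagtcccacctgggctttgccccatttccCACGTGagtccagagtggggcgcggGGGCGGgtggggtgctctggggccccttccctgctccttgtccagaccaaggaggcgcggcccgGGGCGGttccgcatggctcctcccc
Slc20a1, chr2:129198523-129198732, plus strand: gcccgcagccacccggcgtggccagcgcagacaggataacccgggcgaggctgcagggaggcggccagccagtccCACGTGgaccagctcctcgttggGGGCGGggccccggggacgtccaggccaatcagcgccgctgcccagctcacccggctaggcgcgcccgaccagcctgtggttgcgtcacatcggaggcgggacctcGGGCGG
The table of promoters held 11 entries for 9 of the 10 genes. GTTAAT stood in 5.59% of all 32851 promoter windows of this length and in 1 of the 11, that of Slc34a1, at 89 and at 61 bases before the start, counted to the motif's first base on the sense strand. CACGTG stood in 4.65% of all windows and in 4 of the 11, for Slc20a1, Slc13a3, Slc5a1 and Slc9a3. GGGCGG stood in 26.7% of all windows and in 5 of the 11, for Slc20a1 (2 windows), Slc13a3, Slc4a4 and Slc9a3. No letters of these motifs overlapped in the lines shown, and a match of letters is a description and not a site of binding.

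Depth ranged from 172827 to 2341800 counts per library, with a median of 757897. Between 109 and 4757 counts fell on Slc34a1 and between 60 and 1331 on Slc4a4 in a library, but only 0 to 86 on Slc34a3 and 2 to 399 on Slc20a1, so the latter carried the lowest median counts of the 10. Levels are CPM, counts divided by the library total and the TMM factor of its arm, and they are not divided by transcript length, so they were compared between libraries and not between genes. The library names had 2 forms, 30 with and 45 without a separator (_), both present in every IgG, ABT, VeWT and VeKO group, while all 16 PbWT and PbKO libraries lacked it. In 24 libraries Xist, expressed from the inactive X of females, and 4 genes of the Y chromosome both reached 10 counts, among them all 4 PbKO UUO libraries and 22 of the 24 without a separator. In those 4 Xist stood at 45.3 to 234 CPM and the Y genes at 87.2 to 111. The methods take each animal as the experimental unit. They mention pooling of the indexed libraries for sequencing, but no pooling of mice. Whether libraries with both Xist and Y counts hold RNA of more than 1 mouse was not tested, so n, SE and p-values are given per library. The library VeKO CL replicate 2 (278084 counts) stood apart from its group, with 4 tubular injury markers at a sum of 512 CPM against 11.9 to 33.6 in the other 5 and 4 fibroblast and pericyte markers at 394 against 80.2 to 227. In libraries whose names share a number, 4 of 8 pairs carried VeWT on 1 kidney and VeKO on the other.

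The deleted genes were examined in whole-kidney RNA. Ptprb was 34.2 ± 6.39 CPM (mean ± SD, n = 6) in VeKO and 54.0 ± 21.5 (n = 7) in VeWT CL kidneys, and 33.3 ± 18.9 against 51.2 ± 28.0 in UUO kidneys (n = 8 each), with no difference past the test. Pdgfb was 19.0 ± 3.98 CPM in CL kidneys labelled PbKO and 10.4 ± 6.73 in PbWT (n = 4 each), so the mean was higher under the knockout label, a difference of 0.78 ± 0.33 that did not pass (adjusted p = 1.00). In UUO kidneys it was 37.1 ± 3.09 against 52.6 ± 6.57 CPM (adjusted p = 0.125). The response of Pdgfb to UUO was lower in mice labelled PbKO, by a difference of −1.26 ± 0.39 that passed (adjusted p = 0.046). That difference combines −0.47 in UUO kidneys with 0.78 in CL kidneys, where Pdgfb lay higher under the knockout label. The larger part thus came from CL kidneys, so the response does not settle the label. The levels in CL and UUO kidneys differed in opposite directions without passing and do not settle it either. The study's own measurement of the deletion was not used here. Reads outside a deleted exon would not show the deletion, and those libraries are called labelled PbKO below. The defining proximal tubule gene Lrp2 (megalin) had a group mean of at least 758 CPM in all 12 groups, which goes with kidney tissue. It does not check the CL or UUO label.

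**Figure D1:**
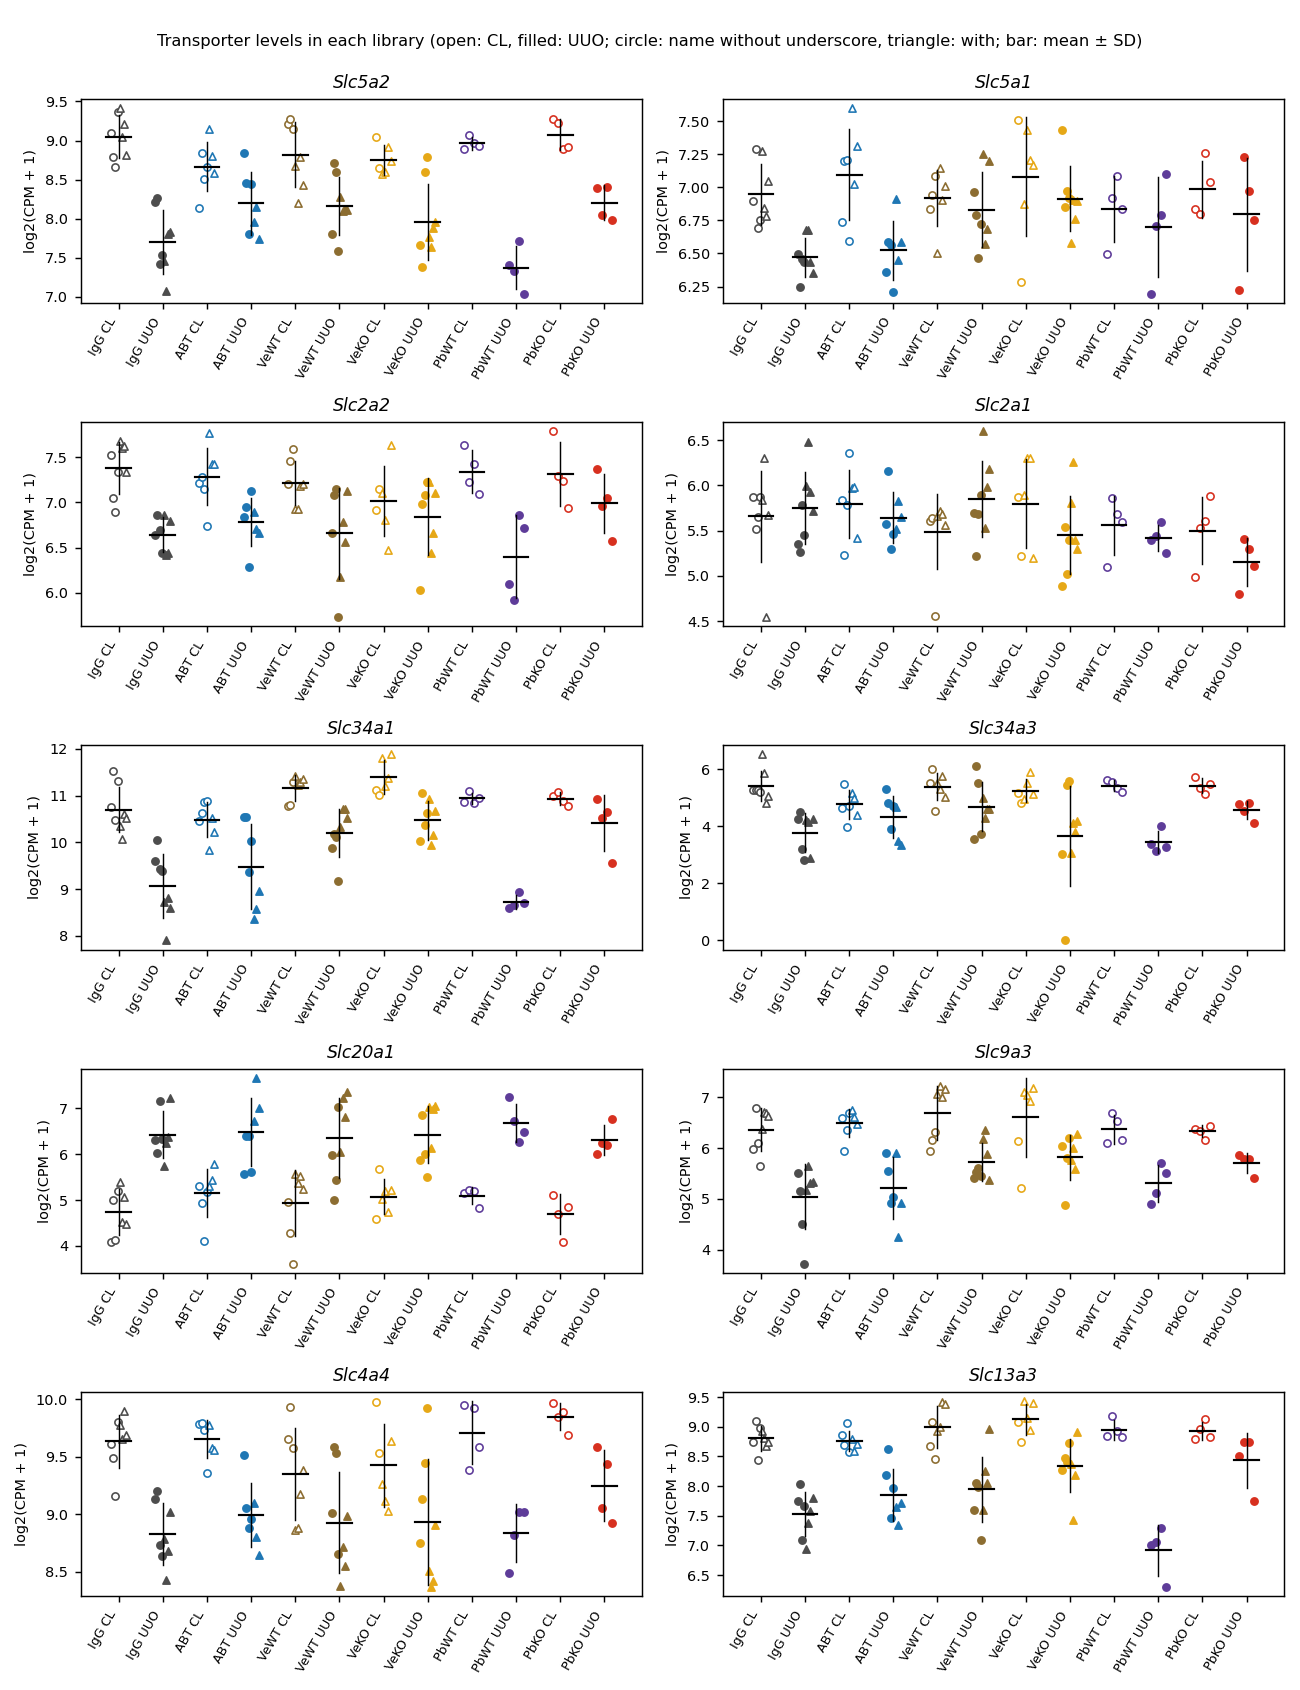
Levels of the 10 transporters in each of the 75 libraries as log2(CPM + 1), with open symbols for CL and filled for UUO kidneys, circles and triangles for the 2 forms of library name, and bars for mean ± SD. Slc34a1, Slc13a3, Slc9a3 and Slc5a2 sit lower and Slc20a1 sits higher in the UUO groups, and the 4 UUO libraries labelled PbKO sit above the PbWT ones for Slc34a1.

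Between 4 and 8 of these carriers were called lower in obstructed than in contralateral kidneys, and PiT-1 was called higher in all 6 comparisons. In IgG mice 8 of 10 were lower and 1, Slc20a1, was higher in UUO than in CL kidneys (edgeR quasi-likelihood test, Benjamini-Hochberg adjusted p under 0.05), where 18.2% of the 9579 genes tested were called lower and 16.3% higher. In ABT mice 6 were lower and 1 higher, against a background of 12.5% and 12.6%. In VeWT mice 4 were lower and 1 higher of 10, against 8.38% and 10.0% of 11916 genes, and in VeKO mice also 4 and 1, against 3.47% and 4.47%. In PbWT mice 7 were lower and 1 higher, against 19.4% and 17.9% of 10923 genes, and in mice labelled PbKO 4 and 1, against 2.42% and 3.94%. The member called higher was Slc20a1 in all 6. The median log2 fold change of the 10 was −0.98 in IgG, −0.55 in ABT, −0.53 in VeWT, −0.58 in VeKO, −0.97 in PbWT and −0.45 in labelled PbKO mice, while the median over all genes tested lay between −0.01 and 0.04. Without TMM the counts called fell to 2 in VeWT and 3 in VeKO mice, beside 1926 against 2194 and 855 against 947 of all genes (543 against 999 and 242 against 414 lower), and with all 12 groups in 1 fit to 1 in labelled PbKO mice, where 125 genes in all were called against 694. With a term in the fit for the separator in library names, 7 members were called in VeWT and 7 in VeKO mice. All genes called then numbered 4043 against 2194 and 2561 against 947. That term gave 9 members in IgG and 8 in ABT mice, beside 3860 against 3301 and 3090 against 2407 of all genes. Leaving out 1 library moved the counts of VeKO and labelled PbKO mice by more than 1.5 times, and gave 6 to 8 calls in ABT and 4 to 5 in VeWT mice. In VeKO mice 1 member was called without VeKO CL replicate 6, 2 without VeKO UUO replicate 7 and 3 without VeKO CL replicate 3 or 4 or VeKO UUO replicate 1, 5 or 6, while 682 to 857 of all genes were called in these fits against 947. In labelled PbKO mice 2 were called without PbKO CL replicate 1 or PbKO UUO replicate 4, and 3 without PbKO CL replicate 2 or 3 or PbKO UUO replicate 2, while 339 to 644 of all genes were called against 694. Without VeKO CL replicate 2, the library with injury marker counts, the 5 called in VeKO mice were the same, with Slc34a1 at −0.99, Slc13a3 at −0.82, Slc9a3 at −1.07, Slc5a2 at −0.75 and Slc20a1 at 1.59, and the other 5 were again not called. In bulk tissue, fewer cells of a type and less RNA per cell cannot be told apart.

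**Figure D2:**
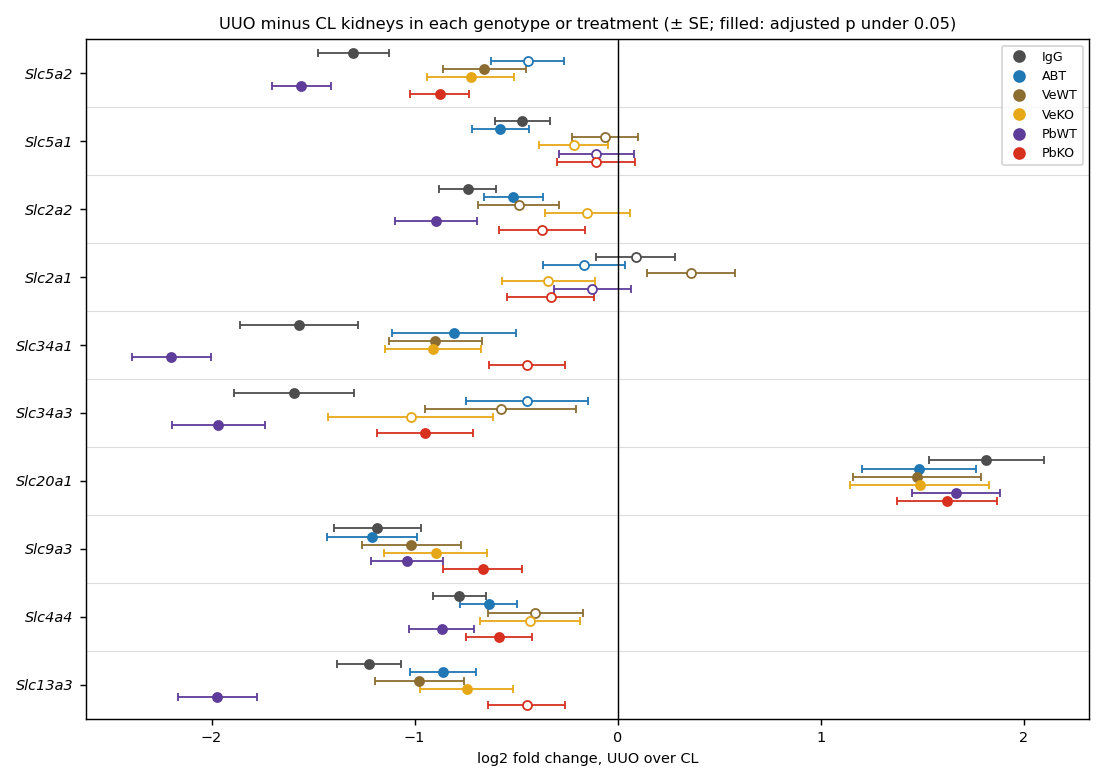
log2 fold change of UUO over CL kidneys for each transporter in the 6 genotypes or treatments, with bars of 1 SE and filled points at adjusted p under 0.05. Slc20a1 lies between 1.47 and 1.81 in all 6, whereas Slc2a1 spreads around 0 with no filled point.

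Slc34a1, the main phosphate carrier of the brush border, was lower in all 6 comparisons and called in 5. Its lowest, median and highest levels were 1083, 1513 and 2932 CPM in IgG CL kidneys (n = 8) and 239, 558 and 1057 in IgG UUO kidneys (n = 8), so that the groups did not overlap. The log2 fold change was −1.57 ± 0.29 (SE, adjusted p = 5.55e-05), a mean level at 33.3% of that in CL kidneys. In ABT mice the levels were 909, 1459 and 1884 in CL and 327, 659 and 1499.7 in UUO kidneys (n = 7 each), with 4 of 7 UUO libraries below every CL library and a change of −0.81 ± 0.30 (adjusted p = 0.049). That call was lost without any 1 of 8 libraries, ABT CL replicates 2, 3, 4 and 6 and ABT UUO replicates 3, 5, 6 and 7, with adjusted p up to 0.0996. In VeWT mice Slc34a1 went from 1748, 2494 and 2741 (n = 7) to 574, 1221 and 1689 (n = 8), a change of −0.90 ± 0.23 (adjusted p = 0.00514) without overlap. That call was lost without TMM (−0.72, adjusted p = 0.0601) and without the numbers that carry different genotypes on the 2 kidneys (−0.92, adjusted p = 0.0564). In VeKO mice it went from 2069.5, 2497 and 3767 (n = 6) to 980.3, 1453 and 2136 (n = 8), with 7 of 8 UUO libraries below all CL libraries and a change of −0.91 ± 0.24 (adjusted p = 0.013, and 0.0502 without VeKO CL replicate 6).

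The lowest estimate for Slc34a1 was in PbWT mice. The 4 CL libraries held 1875, 2187, 1827 and 1979 CPM and the 4 UUO libraries 388, 406, 489 and 414, a change of −2.20 ± 0.20 (adjusted p = 3.97e-09). In mice labelled PbKO the CL libraries held 2038, 2172, 1895 and 1742 and the UUO libraries 1955, 1459.8, 1610.0 and 748, a difference of −0.45 ± 0.19 that did not pass the test (adjusted p = 0.173). One of those UUO libraries lay among the CL values and 3 lay below them, and without that library, PbKO UUO replicate 1, the fall passed (−0.62, adjusted p = 0.045). The annotated exons of Slc34a1 share 545 bases with Pfn3, a profilin gene that lies within them on the opposite strand. Pfn3 changed by −1.63 ± 0.31 in IgG and −2.30 ± 0.23 in PbWT mice, and across the 75 libraries, centred within group and name form, its r with Slc34a1 was 0.77. No source used here says whether reads were assigned by strand, and reads of both genes cannot be told apart there.

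Slc34a3, the brush border carrier with few counts, was called lower in IgG, PbWT and labelled PbKO mice. In IgG mice it held 27.3 to 91.0 CPM in CL and 6.12 to 21.4 in UUO kidneys (−1.59 ± 0.29, adjusted p = 5.01e-05). In PbWT mice it held 35.7 to 47.9 and 7.69 to 15.0 (−1.97 ± 0.23, adjusted p = 2.26e-07), and in labelled PbKO mice 34.1 to 52.7 and 16.4 to 27.4 (−0.95 ± 0.24, adjusted p = 0.0161). None of these ranges overlapped. The labelled PbKO call was lost without PbKO CL replicate 1 (adjusted p = 0.0581) or PbKO UUO replicate 4 (0.0947). The differences in ABT (−0.45 ± 0.30), VeWT (−0.58 ± 0.37) and VeKO mice (−1.02 ± 0.41) did not pass, though the last passed without VeKO UUO replicate 3 or 4 (adjusted p = 0.0447 and 0.0422). Among libraries with a separator Slc34a3 was called in both VeWT and VeKO mice, with or without the shared number as a block. With the separator term, and with all 12 groups in 1 fit, it was called in VeKO but not in VeWT mice. Among the ABT libraries that share a number between kidneys, with that number as a block, Slc34a3 differed by −0.96 (adjusted p = 0.0392). In 1 VeKO UUO library it had 0 of 221258 counts, which allows up to 13.6 CPM before TMM scaling.

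Slc20a1, the housekeeping phosphate carrier PiT-1, rose in all 6 comparisons. In IgG mice the lowest, median and highest levels were 15.9, 26.5 and 41.2 CPM in CL and 52.4, 78.6 and 148 in UUO kidneys, without overlap, and the change was 1.81 ± 0.28 (adjusted p = 4.43e-06). In ABT mice they were 16.3, 38.6 and 54.3 and 46.7, 83.5 and 202, with 5 of 7 UUO libraries above all CL libraries (1.48 ± 0.28, adjusted p = 0.000129). VeWT (1.47 ± 0.32, adjusted p = 0.00113) and VeKO mice (1.49 ± 0.34, adjusted p = 0.00544) had 6 of 8 and 7 of 8 UUO libraries above the CL range. The PbWT libraries held 34.5, 36.3, 35.5 and 27.3 in CL and 151, 104, 75.8 and 88.6 in UUO kidneys (1.67 ± 0.22, adjusted p = 1.07e-06). Those labelled PbKO held 33.4, 25.1, 15.9 and 27.9 and 63.6, 75.1, 72.7 and 108 (1.62 ± 0.24, adjusted p = 0.000139), again without overlap. The mean level in UUO kidneys was 2.72 to 3.34 times that in CL kidneys over the 6. No single library left out ended any of these calls. Its exons share 452 bases with 9830144P21Rik on the opposite strand, which had a median of 5 counts.

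Within a library the ratio of Slc34a1 to Slc20a1 counts needs no scaling between libraries. It ran from 31.8 to 108 in IgG CL and 2.59 to 16.5 in IgG UUO kidneys, 51.5 to 72.5 and 2.57 to 6.46 in PbWT, and 61.0 to 119 and 6.95 to 30.7 in labelled PbKO mice. The ratio also depends on transcript length, so only its shift is read, and the CL and UUO ranges did not overlap in 5 of the 6. In ABT mice 6 of 7 UUO libraries lay below the CL range of 22.1 to 114. The mean shift was −3.38 log2 units in IgG, −2.36 in ABT, −2.41 in VeWT, −2.31 in VeKO, −3.82 in PbWT and −2.18 in labelled PbKO mice. By contrast the ratio of Slc34a1 to Slc34a3 shifted by −0.53 to 0.37 log2 units, with overlapping ranges in all 6. The VeKO UUO library with 0 Slc34a3 counts has no such ratio and was left out, so that value rests on 7 of 8 UUO libraries.

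**Figure D3:**
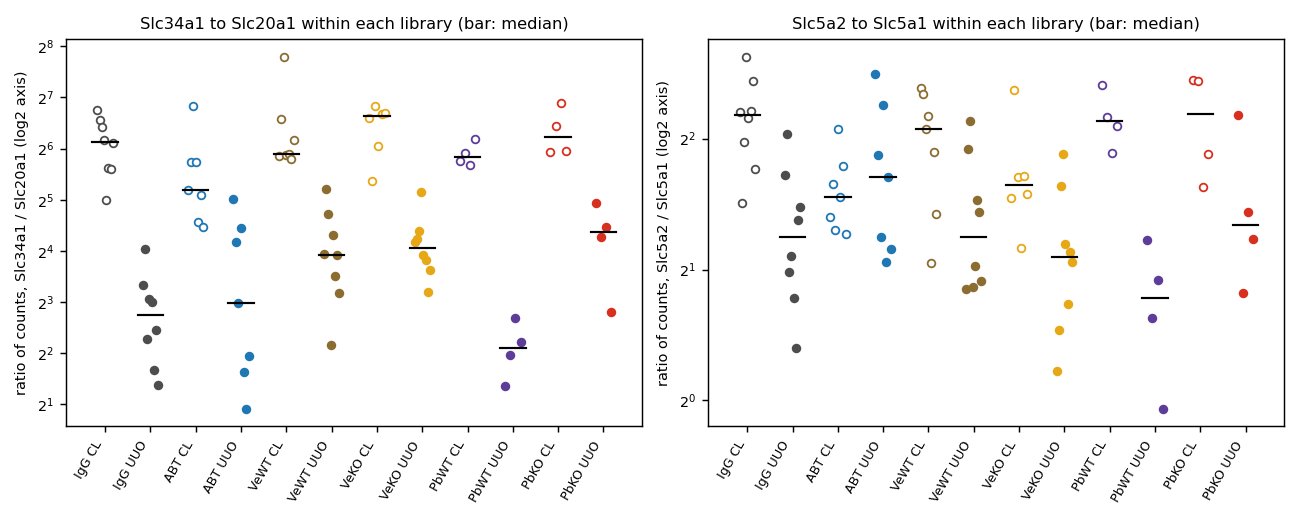
Ratio of counts within each library on a log2 axis, Slc34a1 to Slc20a1 on the left and Slc5a2 to Slc5a1 on the right, with bars at the group median. The left ratio is lower in UUO than in CL kidneys without overlap in all but the ABT mice, whereas the right ratio separates CL from UUO libraries only in PbWT mice.

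Among the glucose carriers SGLT2 was called lower in 5 of 6 comparisons, GLUT2 in 3, SGLT1 in 2 and GLUT1 in 0, and differences between these genes were not tested. Slc5a2 went from 404, 536 and 683 CPM (lowest, median, highest) in IgG CL to 134, 203 and 308 in IgG UUO kidneys, without overlap and with a change of −1.30 ± 0.17 (adjusted p = 3.29e-07). In ABT mice it went from 279.6, 403 and 565 to 212, 282 and 459, a difference of −0.44 ± 0.18 that did not pass (adjusted p = 0.07) unless ABT CL replicate 1 or ABT UUO replicate 1 was left out (0.0273 and 0.0132). With the shared library number as a block it was −0.86 (adjusted p = 3.83e-05), and without the block in the same libraries −0.87 (0.00499), while the ABT libraries without a separator gave −0.11 (0.807). VeWT (−0.66 ± 0.21, adjusted p = 0.0228) and VeKO mice (−0.72 ± 0.21, adjusted p = 0.0314) had overlapping ranges, and the calls were lost without VeWT CL replicate 1 or 2 or VeWT UUO replicate 4, and without VeKO CL replicate 1, 5 or 6 or VeKO UUO replicate 1, 2, 5, 6 or 7 (adjusted p up to 0.0694). The VeWT call was also lost without TMM (adjusted p = 0.108), and the VeKO call with edgeR's exact test (0.0767). In PbWT mice the 4 CL libraries held 474, 538, 498 and 486 and the 4 UUO libraries 169, 159.6, 208 and 131 (−1.56 ± 0.15, adjusted p = 8.15e-09). Those labelled PbKO held 618, 599, 473 and 483 and 335, 263, 339 and 251 (−0.88 ± 0.15, adjusted p = 0.000428), also apart.

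Slc5a2 shares 597 exon bases with BC017158, a gene on the opposite strand. BC017158 changed by −1.29 ± 0.21 in IgG and −0.26 ± 0.22 in ABT mice, beside −1.30 ± 0.17 and −0.44 ± 0.18 for Slc5a2. It was also the gene most like Slc5a2 across libraries (r = 0.89), so how many counts of either gene came from the shared bases cannot be told apart here.

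SGLT1, GLUT2 and GLUT1 were called in fewer comparisons than SGLT2. Slc5a1 was lower in IgG (−0.47 ± 0.14, adjusted p = 0.00635) and ABT mice (−0.58 ± 0.14, adjusted p = 0.00193), at 74.9 to 101 against 103 to 155 CPM in the former. In the other 4 its difference lay between −0.22 and −0.06 and did not pass, and it turned positive in VeWT and PbWT mice without TMM scaling. Both calls of Slc5a1 were lost without TMM, in IgG mice at −0.25 (adjusted p = 0.239) and in ABT mice at −0.44 (adjusted p = 0.0537). Slc2a2 was lower in IgG (−0.74 ± 0.14, adjusted p = 7.18e-05), ABT (−0.51 ± 0.15, 0.00801) and PbWT mice (−0.89 ± 0.20, 0.00102), of which the ABT call was lost without TMM (adjusted p = 0.0795), and its differences of −0.49 in VeWT, −0.15 in VeKO and −0.37 in labelled PbKO mice did not pass. In VeWT mice Slc2a2 was called with the separator term and with all 12 groups in 1 fit. Slc2a1 passed in none of the 6, with differences from −0.34 ± 0.23 in VeKO to 0.36 ± 0.22 in VeWT mice and levels of 22.4 to 77.7 CPM in IgG CL and 37.5 to 88.2 in IgG UUO kidneys. The SE of its differences was 0.19 to 0.23.

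Among the acid-base carriers Slc9a3 was called lower in all 6 comparisons and Slc4a4 in 4, but without TMM Slc9a3 was called in 3, IgG, ABT and PbWT mice. Slc9a3, which encodes the proton exchanger NHE3, changed from −1.21 ± 0.22 (adjusted p = 8.14e-05) in ABT to −0.67 ± 0.19 (adjusted p = 0.0379) in labelled PbKO mice. Its levels were 60.4 to 106 CPM in ABT CL and 17.9 to 58.9 in ABT UUO kidneys, and these ranges did not overlap. It was 36.2 to 144 in VeKO CL and 28.6 to 76.9 in VeKO UUO kidneys, where a single UUO library lay below all CL libraries. Without TMM its difference was −0.90 in VeWT (adjusted p = 0.0505), −0.83 in VeKO (0.136) and −0.59 in labelled PbKO mice (0.0735). The VeKO call was lost without VeKO CL replicate 3, 4 or 6 or VeKO UUO replicate 7, and the labelled PbKO call without any of 7 libraries, all 4 PbKO CL and PbKO UUO replicates 2, 3 and 4 (adjusted p up to 0.160). Slc4a4, the basolateral bicarbonate carrier, was lower in IgG (−0.78 ± 0.13, adjusted p = 1.41e-05), ABT (−0.64 ± 0.14, 0.000721), PbWT (−0.87 ± 0.16, 0.000111) and labelled PbKO mice (−0.58 ± 0.16, 0.0308). The labelled PbKO call of Slc4a4 was lost without PbKO CL replicate 1, 2 or 3 or PbKO UUO replicate 2 or 4. The differences in VeWT (−0.41 ± 0.23) and VeKO mice (−0.43 ± 0.24) did not pass. With the separator term Slc4a4 was called in both. Among libraries with a separator, with or without the shared number as a block, it was called in VeKO but not in VeWT mice.

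Slc13a3, the dicarboxylate carrier NaDC3, was lower in all 6 comparisons and called in 5. In IgG mice the lowest, median and highest levels were 346, 438 and 548 CPM in CL and 122, 196 and 262 in UUO kidneys, apart, and the change was −1.22 ± 0.16 (adjusted p = 1.65e-07). It was −0.86 ± 0.16 in ABT, −0.98 ± 0.22 in VeWT and −0.74 ± 0.23 in VeKO mice, all past the test, though the VeKO call (adjusted p = 0.0379) was lost without any 1 of 7 libraries (VeKO CL replicates 3, 4 and 6 and VeKO UUO replicates 1, 5, 6 and 7), without TMM (0.149), without the filter on low counts (0.066) and with edgeR's exact test (0.0541). In PbWT mice the CL libraries held 457, 583, 486 and 451 and the UUO libraries 128, 132, 156 and 77.9 (−1.97 ± 0.19, adjusted p = 1.65e-08). In mice labelled PbKO they held 442, 497, 561 and 453 and 362, 426, 427 and 215, a difference of −0.45 ± 0.19 that did not pass (adjusted p = 0.175) although all 4 UUO libraries lay below the CL range.

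The same changes were recomputed within each form of library name. In IgG mice 7 members were called among libraries without a separator and 8 among those with it, and in VeWT mice 4 and 5, where 2074 and 2935 genes in all were called in IgG and 1090 and 3219 in VeWT mice. In ABT mice 3 were called without and 8 with a separator, beside 1031 and 2414 of all genes. In VeKO mice 0 and 7 members were called, beside 0 and 2651 of all genes by edgeR, so the 0 held for the whole table and is not particular to these carriers. At an unadjusted edgeR p under 0.05 the VeKO libraries without a separator had 540 genes and 0 members. Slc34a1 was −0.51 ± 0.24 without and −1.57 ± 0.22 with a separator in ABT mice, and −0.47 ± 0.28 and −1.10 ± 0.21 in VeKO mice. Slc9a3 in VeKO mice was 0.09 ± 0.34 without and −1.13 ± 0.19 with a separator, and Slc20a1 was 0.92 ± 0.56 and 1.82 ± 0.26. Only 2 VeKO CL libraries lacked a separator, and 1 of them was replicate 2, with the raised injury markers. Without the 4 numbers whose kidneys carried different genotypes, 0 members were called in VeKO and 2, Slc20a1 and Slc9a3, in VeWT mice. All genes called then numbered 108 in VeKO (14 lower) and 815 in VeWT mice, against 947 and 2194 with every library, and 1362 genes in VeKO mice had an unadjusted edgeR p under 0.05. The difference between forms was not tested.

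**Figure D4:**
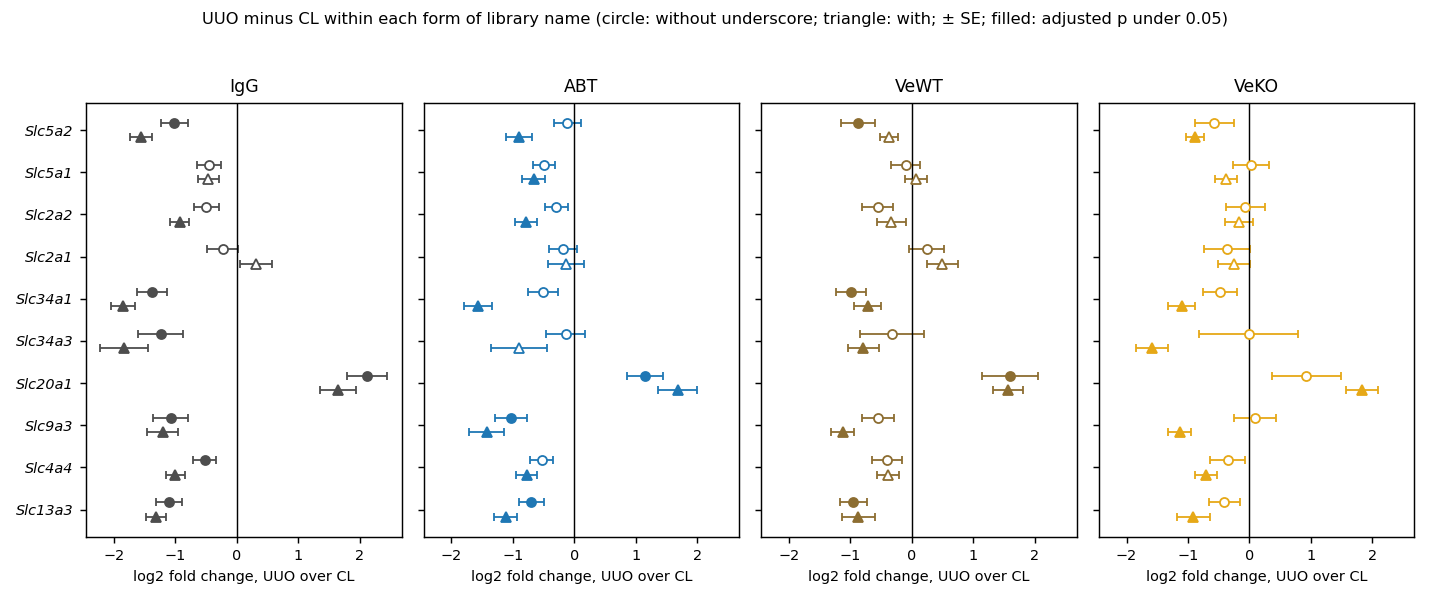
log2 fold change of UUO over CL kidneys computed within libraries without (circles) and with a separator (triangles), with bars of 1 SE and filled points at adjusted p under 0.05, for the 4 genotypes or treatments that hold both forms. In VeKO mice 0 circles and 7 triangles are filled, where 0 and 2651 of all genes were called.

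Marker sums moved with these changes for some cell types only. In IgG mice those of podocytes overlapped (158 to 291 CPM in CL and 182 to 273 in UUO kidneys). The collecting duct sums also overlapped (109 to 423 and 48.3 to 190). Intercalated (199 to 431 and 84.3 to 286) and endothelial sums (48.8 to 154 and 95.5 to 192) did as well. The summed level of 8 proximal tubule markers was 10403 to 17150.4 CPM in IgG CL and 5125 to 8307 in IgG UUO kidneys, and 11841 to 15474 and 3445 to 4447 in PbWT mice. It also did not overlap in labelled PbKO mice, but it did in ABT (10574 to 15612 and 5629 to 10930.2), VeWT (8061 to 17665 and 5063 to 9539) and VeKO mice (10093 to 16665 and 4363 to 13461). The distal convoluted tubule markers stood at 505 to 849 CPM in IgG CL and 114 to 297 in IgG UUO kidneys, and the thick ascending limb markers at 4773 to 7434 and 1966 to 3675. Lrp2, which defines the proximal tubule, was above 0 in every library. In IgG mice the 4 tubular injury markers summed to 13.8 to 44.4 CPM in CL and 1405 to 2667 in UUO kidneys, the 5 macrophage markers to 31.1 to 83.7 and 147 to 234, and the 4 fibroblast and pericyte markers to 81.1 to 191 and 497 to 955. The injury sums were apart in all 6, and the macrophage and the fibroblast and pericyte sums in all but the VeKO mice, where the CL ranges reached 109 and 394 CPM in replicate 2 and the UUO ranges began at 56.8 and 183. None of these markers was at 0 throughout a group. Their part in the results was not tested.

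Treatment with ABTAA and deletion of Veptp were then compared with their controls in the obstructed kidney. None of the 10 members was called between ABT and IgG UUO kidneys, where 0% of genes were called and 340 of 9579 had an unadjusted p under 0.05, 1 of them a member, with 0 genes called by DESeq2. That was Slc5a2, at 212, 282 and 459 CPM in ABT and 134, 203 and 308 in IgG UUO kidneys, a difference of 0.48 ± 0.18 (edgeR quasi-likelihood, unadjusted p = 0.0106, adjusted p = 1.00). Slc34a1 differed by 0.52 ± 0.30 and Slc13a3 by 0.32 ± 0.16, within overlapping ranges. In CL kidneys, where 0% of genes were called (303 at unadjusted p under 0.05, and 0 by DESeq2), Slc5a2 (−0.38 ± 0.18) and Slc34a3 (−0.72 ± 0.27) lay lower in ABT mice at unadjusted p of 0.0392 and 0.0117. Between the responses to obstruction 0% of genes were called (315 at unadjusted p under 0.05, and 0 by DESeq2). They differed by 0.86 ± 0.25 for Slc5a2 and 1.15 ± 0.42 for Slc34a3, at unadjusted p of 0.00158 and 0.0102 and adjusted p of 0.999 for both. The responses of Slc5a2 in IgG and ABT mice therefore did not differ past the test.

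Between VeKO and VeWT UUO kidneys no member was called and none had an unadjusted p under 0.05, with 0% of genes called by edgeR, 426 of 11916 at unadjusted p under 0.05, and 1 gene by DESeq2. The differences of the 10 ran from −0.60 ± 0.38 for Slc34a3 to 0.35 ± 0.21 for Slc13a3. In CL kidneys they ran from −0.17 to 0.33 (0% of genes called, 229 at unadjusted p under 0.05, and 0 by DESeq2), with no member under that p. Between their responses to obstruction 0% of genes were called, 324 were at unadjusted p under 0.05, and 0 were called by DESeq2. The 1 member under 0.05 unadjusted was Slc2a1 (−0.70 ± 0.32, edgeR unadjusted p = 0.0347). The SE of Slc34a1 in UUO kidneys was 0.22, and its difference of 0.24 had a 95% interval of −0.19 to 0.68.

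The obstructed kidneys labelled PbKO differed from PbWT in 4 of 10 members, all higher: Slc34a1, Slc13a3, Slc34a3 and Slc5a2. In this comparison 18.6% of the 10923 genes tested were called in either direction, 719 lower and 1315 higher. Slc34a1 held 1955, 1459.8, 1610.0 and 748 CPM in the UUO libraries labelled PbKO and 388, 406, 489 and 414 in PbWT ones, without overlap, a difference of 1.75 ± 0.19 (adjusted p = 1.03e-06). Slc13a3 held 362, 426, 427 and 215 against 128, 132, 156 and 77.9 (1.503 ± 0.19, adjusted p = 6.63e-06). Both genes were lowest in PbKO UUO replicate 4 among those labelled PbKO, and even this library lay above every PbWT one. Slc34a3 held 26.8, 22.4, 27.4 and 16.4 against 9.35, 7.69, 15.0 and 8.77 (1.06 ± 0.25, adjusted p = 0.00387), and Slc5a2 335, 263, 339 and 251 against 169, 159.6, 208 and 131 (0.80 ± 0.15, adjusted p = 0.000326), both also without overlap. Slc2a2 (0.52 ± 0.21) and Slc4a4 (0.40 ± 0.16) did not pass (adjusted p = 0.0857 and 0.0828), but both passed without PbKO UUO replicate 4 (0.04 and 0.0349) and Slc2a2 also without PbWT UUO replicate 3 (0.0267). Slc20a1 (−0.36 ± 0.20), Slc9a3 (0.34 ± 0.19), Slc5a1 (0.15 ± 0.18) and Slc2a1 (−0.24 ± 0.19) did not pass either.

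**Figure D5:**
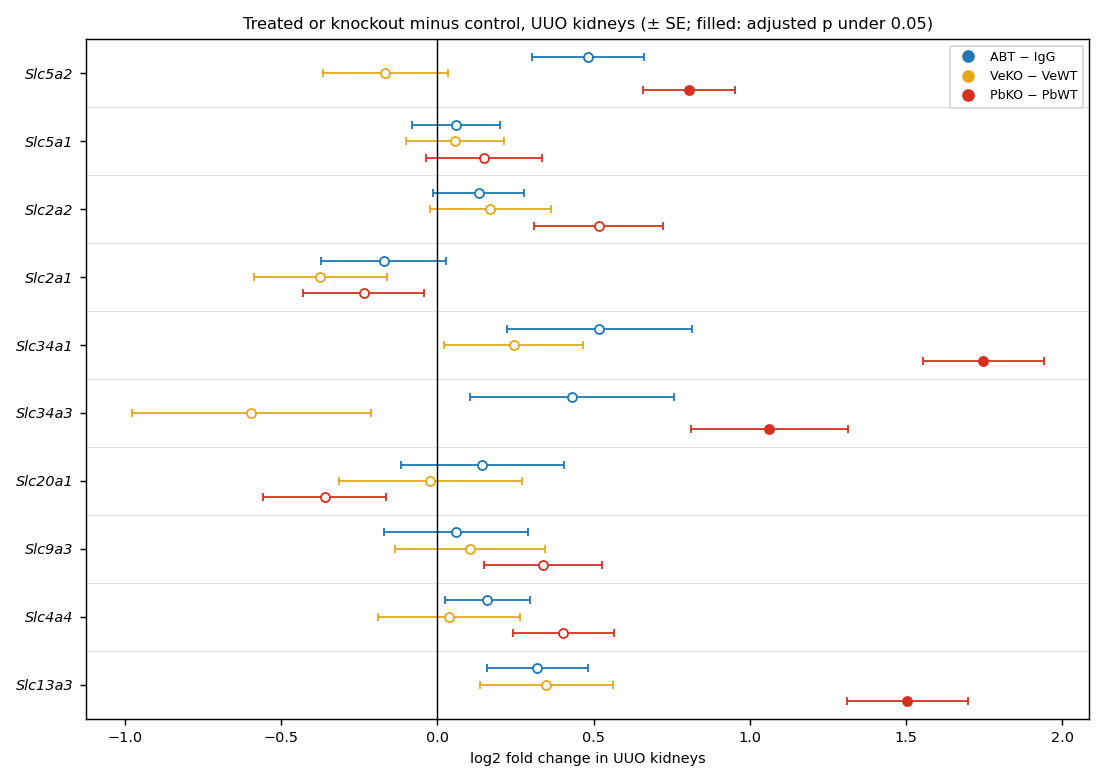
log2 fold change of treated or knockout over control UUO kidneys for each transporter in the 3 arms, with bars of 1 SE and filled points at adjusted p under 0.05. The 4 filled points all belong to the comparison of libraries labelled PbKO with PbWT, with Slc34a1 at 1.75 and Slc13a3 at 1.503.

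Scaling mattered in this arm. The TMM factors of the 4 PbWT UUO libraries were 1.16 to 1.24, against 0.87 to 1.03 in the other 12, and without TMM the median difference over all genes moved from −0.02 to −0.29 and the split of called genes from 719 lower and 1315 higher to 2500 lower and 657 higher. Slc34a1 then differed by 1.44 (adjusted p = 3.93e-06) and Slc13a3 by 1.21, and the 4 members were all still called higher, while Slc20a1 was called lower (−0.63, adjusted p = 0.0239). With all 12 groups in 1 fit, which called 322 genes against 2034, only Slc34a1 and Slc13a3 were called (adjusted p of 0.00187 and 0.000369). With the Xist level of each library as a covariate the 4 remained called, with Slc34a1 at 1.76. No such covariate was used in the other arms. In CL kidneys no member was called and none had an unadjusted p under 0.05, with 0% of genes called (378 of 10923 at unadjusted p under 0.05, and 0 by DESeq2), and Slc34a1 differed by −0.00 ± 0.19.

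The response to UUO itself differed between labelled PbKO and PbWT mice for Slc34a1, Slc13a3 and Slc5a2, where 8.56% of genes were called. The difference between the responses was 1.75 ± 0.27 for Slc34a1 (adjusted p = 0.000201), 1.52 ± 0.27 for Slc13a3 (adjusted p = 0.000771) and 0.68 ± 0.20 for Slc5a2 (adjusted p = 0.0373). Slc34a3 missed the threshold (1.02 ± 0.33, adjusted p = 0.0563), and it passed without PbKO CL replicate 1, PbWT UUO replicate 3 or PbKO UUO replicate 4. The Slc5a2 call was lost without any 1 of 10 of the 16 libraries, namely PbWT CL replicates 2, 3 and 4, PbKO CL replicates 3 and 4, PbWT UUO replicates 1, 2 and 4, and PbKO UUO replicates 1 and 3 (adjusted p up to 0.0973), and without TMM (0.38, adjusted p = 0.238). In the fit of all 12 groups, which called 10 genes against 935, none of the 3 passed, at adjusted p of 0.113, 0.0508 and 0.517. For Slc20a1 the responses were 1.67 ± 0.22 and 1.62 ± 0.24, and their difference of −0.05 ± 0.34 did not pass.

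The 8 proximal tubule markers summed to 6931 to 11450.1 CPM in UUO kidneys labelled PbKO and 3445 to 4447 in PbWT ones, and to 12038 to 15631 and 11841 to 15474 in CL kidneys. The tubular injury markers summed to 676 to 1213 against 1233 to 2014, and the fibroblast and pericyte markers to 235 to 479 against 595 to 829.9 CPM. Distal convoluted tubule markers stood at 394 to 536 against 159.8 to 186, those of the thick ascending limb at 2867 to 4332 against 1875 to 2245 and those of intercalated cells at 258 to 289 against 123 to 185. Macrophage markers summed to 102 to 137 against 154 to 234, endothelial markers to 55.6 to 101 against 113 to 133 and red blood cell markers to 370.0 to 583 against 202 to 272. All these ranges were apart, while those of collecting duct, podocyte and fat markers overlapped. All 4 UUO libraries labelled PbKO held both Xist and Y chromosome counts, against 2 of 4 PbWT ones. The part of these in the 4 calls was not tested. Pfn3, which shares bases with Slc34a1, differed by 1.65 ± 0.24 and BC017158, which shares bases with Slc5a2, by 0.88 ± 0.15, both past the test.

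A list of 40 further carriers and regulators of glucose, phosphate and acid-base transport was counted alongside. In IgG mice 33 passed the filter on low counts, of which 20 were lower and 3 higher in UUO kidneys, where 18.2% and 16.3% of all genes were, and in ABT mice 19 were lower and 2 higher, against 12.5% and 12.6%. In the Veptp arm, with 38 tested, 16 were lower and 2 higher in VeWT mice, against 8.38% and 10.0%, and 13 and 2 in VeKO mice, against 3.47% and 4.47%. In the Pdgfb arm, with 36 tested, 26 were lower and 3 higher in PbWT mice, against 19.4% and 17.9%, and 7 and 1 in those labelled PbKO, against 2.42% and 3.94%. The median log2 fold change was −0.83 in IgG, −0.62 in ABT, −0.57 in VeWT, −0.59 in VeKO, −0.93 in PbWT and −0.32 in labelled PbKO mice.

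The 8 with the lowest adjusted p in IgG mice held 1 that rose. Slc34a2, the phosphate carrier NaPi-IIb of lung and intestine, was at 0 to 18.8 CPM in CL and 37.6 to 67.3 in UUO kidneys of IgG mice (2.85 ± 0.35, adjusted p = 7.09e-08) and rose in all 6 comparisons, by 2.02 in VeKO to 2.93 in PbWT mice. At 0 to 18 counts per CL library its size is imprecise, and 3 CL libraries held 0. The other 7 fell. The brush border scaffold Pdzk1 changed by −1.04 ± 0.12, Kl (klotho, the FGF23 co-receptor) by −1.59 ± 0.23 and the nuclear receptor gene Hnf4a by −0.73 ± 0.12 on the log2 scale. The carbonic anhydrase genes Car12 and Car14 changed by −1.49 ± 0.19 and −2.27 ± 0.37, the anion exchanger Slc4a1 by −2.31 ± 0.38 and the fructose carrier Slc2a5 by −2.05 ± 0.35, with adjusted p between 5.21e-08 and 1.74e-05 over the 8.

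Between labelled PbKO and PbWT UUO kidneys 19 of the 36 were higher and 1, Slc34a2 (−0.84 ± 0.27, adjusted p = 0.0328), was lower, where 18.6% of all genes were called, 1315 higher and 719 lower. The highest differences were those of Car14 (2.01 ± 0.19), Slc2a4 (1.86 ± 0.40), which encodes the insulin-responsive glucose carrier GLUT4, Slc4a1 (1.59 ± 0.38), Kl (1.49 ± 0.15) and Slc9a8 (1.39 ± 0.26), a sodium-proton exchanger. Slc2a5 (1.25 ± 0.20), the monocarboxylate carrier Slc5a8 (1.12 ± 0.27), the further SGLT-family genes Slc5a9 (0.89 ± 0.26), Slc5a10 (0.66 ± 0.20) and Slc5a11 (0.78 ± 0.20), and the scaffolds Pdzk1 (0.87 ± 0.13) and Slc9a3r1 (0.61 ± 0.15) were higher too. The sodium pump genes Atp1b1 (0.75 ± 0.15) and Fxyd2 (1.01 ± 0.19), the carbonic anhydrases Car2 (0.50 ± 0.13), Car4 (0.75 ± 0.22) and Car12 (0.65 ± 0.14) and Hnf4a (0.59 ± 0.15) were also among the 19. Without TMM 10 were higher and 3 lower, while 657 of all genes were higher and 2500 lower. No gene of the list was called between ABT and IgG or between VeKO and VeWT UUO kidneys.

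The levels were also compared across libraries once group and name form were removed, by Pearson r of centred log2(CPM + 1) over 75 libraries in 20 combinations of group and form, as a description. The points share library and depth. Of 45 pairs of members 26 had r above 0, and the median was 0.06. The closest pairs were Slc2a2 with Slc4a4 (0.76) and Slc5a2 with Slc34a3 (0.71), whereas Slc20a1 with Slc9a3 (−0.36) was the most opposed. Among the 9554 genes tested in all arms, Slc34a1 was most like Ass1 (0.84) and Cryzl2 (0.82), Slc5a2 most like BC017158 (0.89), Asl (0.79) and Gatm (0.77), and Slc34a3 most like Gatm (0.80), Ceacam1 (0.78) and Nox4 (0.77). Genes like Slc4a4 included Fut9 (0.78) and Pdzk1 (0.75), Slc2a2 was most like Gpd1 (0.73), Atp6v1a and Suclg2 (0.72 each), and Slc13a3 most like Ehhadh, Ces1d (0.72 each) and Abat (0.69). Slc2a1 was most like Cdh6 (0.70), Scd1 and Acot7 (0.61 each), Slc9a3 most like 1700022N22Rik (0.64), Tmem72 (0.59) and Fh1 (0.57), and Slc5a1 most like Edc4 (0.61), Jarid2 (0.57) and St5 (0.55). Slc20a1 had the weakest likeness, with the Y chromosome genes Uty (0.55) and Eif2s3y (0.52) and with Tuft1 (0.53). With the summed level of 4 Y genes Slc20a1 had r = 0.53, and with Xist −0.40, while Slc2a1 had −0.44 and 0.51. Slc34a3 had −0.48 and 0.39 and Slc34a1 0.21 and −0.43, and the values of the other 6 members lay between −0.37 and 0.30.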

How the data were processed

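Whole kidneys were profiled by RNA-seq with unique molecular identifiers, each sample in 4 wells of a plate that the authors merged. The authors deposited whole-number counts per gene for all 75 libraries, and the submitters' processing notes name STAR 2.7.3a, UMI-tools 1.1.4, featureCounts, Subread 1.4.6-p5 and mm10. Annotation and strand setting of the counting were not stated in the sources read. Groups came from the labels. Each arm (IgG and ABT, VeWT and VeKO, PbWT and PbKO) was fitted on its own with edgeR 4.0.16 (R 4.3.3; TMM factors, filterByExpr by group, quasi-likelihood test) over 4 groups with 5 comparisons, and p-values were Benjamini-Hochberg adjusted over the genes tested in the arm (threshold 0.05). The SE is the log2 fold change over the root of its F statistic, and intervals are 1.96 SE. The test was tried on simulated data with 200 changed genes. DESeq2 1.42.0, edgeR's exact test on 2 groups (the study's kind of test) and other settings were alternatives. Promoters were read from RefSeq, GRCm38.p6. Total counts of 172827 to 2341800 limit precision, and Slc34a3 and Slc20a1 had the lowest median counts.

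The 10 members, the related and marker lists and the tests were chosen with earlier results of these data known. Named were all members, the 8 related genes with the lowest adjusted p in IgG mice, each related gene called between treated and control UUO kidneys, the 3 genes most like each member, and the deleted genes. Some genes that this rule names are not reported here. Pfn3 and BC017158 were added for their shared bases. Libraries of the ABT arm whose names share a number between kidneys were treated as pairs in an alternative fit only. The main fits had no pair term, so their SE and p-values are unpaired. The reason was that in each of 3 pairs the deviations from the mean of group and name form correlated at 0.16 to 0.38. Different numbers gave −0.26 to 0.10. With 3 libraries per mean the deviations cancel, so these correlations depend on each other. Centred on group alone, the pairs gave 0.31 to 0.51 and different numbers 0.12 to 0.31. Whether the pairs come from the same mice is not settled.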

Additional observations from a re-analysis of the deposited data

Results flagged for a closer look

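Of 120 combinations of gene and group with 4 to 10 libraries, 4 held a library that stood apart from the rest of its group, where chance alone gives about 1 in 20. In VeKO UUO kidneys Slc5a1 was 172 CPM in replicate 1 (24 counts), with the nearest library at 124 CPM. In IgG CL kidneys Slc2a1 was 22.4 CPM in replicate 7 (9 counts), with the nearest at 44.8, and in VeWT CL kidneys it was 22.5 CPM in replicate 3 (4 counts), with the nearest at 46.3. In VeKO UUO kidneys Slc34a3 was 0 CPM in replicate 2 (0 counts), with the nearest at 7.17.

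The response to UUO differed between libraries labelled PbKO and PbWT for 3 members by the test of the difference itself (edgeR quasi-likelihood). The difference was 1.75 on the log2 scale for Slc34a1, 1.52 for Slc13a3 and 0.68 for Slc5a2, with 4 libraries in each of the 4 groups. In all 3 the UUO libraries labelled PbKO lay above the PbWT ones.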

How the results depend on the processing

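Of 676 values of the 86 member fold changes followed under other settings, 594 kept their direction and side of the threshold, 45 lost and 25 gained a call, and 12 reversed. The causes were not tested. Without TMM, 2 members were called for UUO against CL in VeWT and 3 in VeKO mice, against 5 each, beside 1926 against 2194 and 855 against 947 of all genes. With edgeR's exact test 3 were called in VeKO mice, beside 632 against 947 of all genes. The separator term gave 7 in VeWT and 7 in VeKO mice, beside 4043 against 2194 and 2561 against 947 of all genes. In libraries without a separator alone 3 were called in ABT mice, against 7, and 0 in VeKO mice, beside 1031 against 2407 and 0 against 947 of all genes. Without the numbers that carry different genotypes, chosen after seeing the data, 2 were called in VeWT and 0 in VeKO mice, beside 815 against 2194 and 108 against 947 of all genes. With all 12 groups in 1 fit, 1 was called in labelled PbKO mice against 5, 2 between PbKO and PbWT UUO kidneys against 4, and 0 for the difference between their responses against 3. Of all genes, 125 against 694, 322 against 2034 and 10 against 935 were called, in that order.

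With the replicate number as a block, 9 members were called in ABT mice, against 8 without the block in the same libraries, and Slc34a3 was the call gained, beside 2840 against 2205 of all genes. In the Veptp arm, same-numbered libraries correlated at 0.08 to 0.47 (8 pairs, 4 with different genotypes) and different numbers at −0.46 to 0.41, with medians of 0.26 and −0.04. Because 1 of the 8 lay under 0.1 and 4 joined different genotypes, they were not treated as pairs, although the other 7 lay above 0.1, and whether they come from the same mice is not settled. The block there gave 8 calls in VeKO mice, against 7 without it in the same libraries, the gain being Slc5a1 (−0.45, adjusted p = 0.041), and 5 against 5 in VeWT mice, beside 3317 against 2651 and 2885 against 3219 of all genes.

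Leaving out 1 library gave 1 to 6 calls in VeKO mice (1 without VeKO CL replicate 6, 6 without VeKO UUO replicate 3), 2 to 6 in labelled PbKO mice (2 without PbKO CL replicate 1, 6 without PbKO UUO replicate 1), 6 to 8 in ABT, 4 to 5 in VeWT, 9 in IgG and 8 in PbWT mice, 4 to 6 between PbKO and PbWT UUO kidneys and 2 to 4 for their responses. Of all genes, 682 against 947 were called without VeKO CL replicate 6, and 644 against 694 without PbKO CL replicate 1. The counts over all genes for the other ranges are not given here.

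Reversed values were of members that had not passed, except Slc9a3. For UUO against CL, libraries without a separator gave −0.23 for Slc2a1 in IgG mice, and 0.0296 for Slc5a1 and 0.0915 for Slc9a3 in VeKO mice. Slc5a1 in VeWT mice was 0.11 without TMM, 0.0656 in libraries with a separator, 0.11 with the replicate block and 0.0656 without it. Without TMM in PbWT mice Slc2a1 was 0.26 and Slc5a1 0.27, Slc5a1 between PbKO and PbWT UUO kidneys was −0.12, and Slc4a4 for the difference between responses was −0.0165, where Slc5a1 was 0.0699 with Xist as a covariate. With 1 library left out, Slc2a1 in IgG mice ran from −0.0681 to 0.20, Slc2a2 in VeKO mice from −0.25 to 0.0069, Slc5a1 from −0.24 to 0.0382 in PbWT and from −0.26 to 0.0029 in labelled PbKO mice, and for the difference between responses Slc20a1 from −0.24 to 0.18 and Slc5a1 from −0.15 to 0.13.

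Without TMM the split of all called genes moved from 1740 lower and 1561 higher to 1087 and 2492 in IgG mice, from 1197 and 1210 to 796 and 1592 in ABT, from 999 and 1195 to 543 and 1383 in VeWT, from 414 and 533 to 242 and 613 in VeKO, from 2119 and 1956 to 1153 and 4453 in PbWT and from 264 and 430 to 152 and 567 in labelled PbKO mice, and from 207 and 728 to 668 and 312 for the difference between responses. The median over all genes became 0.23, 0.14, 0.14, 0.12, 0.41 and 0.08 for UUO against CL in that order, so log2 changes without TMM are read relative to it.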
